A study of Homo sapiens with 6 samples.

Results

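BH3-only genes encode small proteins that trigger the mitochondrial pathway of apoptosis. The genes examined here were BIK, BCL2L11, BMF, BID, BAD, BBC3, PMAIP1 and HRK, with the related mitochondrial genes BNIP3 and BNIP3L. Each probe set of the array that the platform annotation assigned to exactly 1 of these 10 genes was taken, which gave 26 of 54613 probe sets and 9 of the 10 genes, among 19775 genes named on the array. The single probe set that names BBC3 also names other genes and was left out, so BBC3 has no value here. HRK had 5 probe sets, none of which reached a log2 level of 4 in any sample. The other 8 genes had 18 probe sets that reached 4 in at least 3 of the 6 samples, the level required for a test, and 3 further BCL2L11 probe sets did not reach it.

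The labels give all 6 samples as Capan-1, an established line from a human pancreatic carcinoma, grown in RPMI medium with 15% serum. Of these, 3 had been transfected with a cDNA of p16INK4a, an inhibitor of the kinases CDK4 and CDK6, driven by a cytomegalovirus promoter, and 3 had been mock-transfected. The labels give the same protocol for all samples, with selection of transfected cells in hygromycin (0.1 mg/ml) and G418 (1 mg/ml). They do not say what the mock cells received, whether the transfectants were clones or pools, or whether samples V1 to V3 of a group were grown apart. The p-values therefore cover the spread between 6 RNA samples, part of which may be technical. The study's title names apoptosis after restoration of p16, and the p16 samples were therefore compared with the mock samples.

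In healthy cells the anti-apoptotic members of the BCL2 family hold the pore-forming proteins BAX and BAK1 in check. BH3-only proteins bind the guardians, or BAX and BAK1 themselves, through a short helix called the BH3 domain, and so shift the balance towards release of cytochrome c from mitochondria. BNIP3 and BNIP3L carry a weaker BH3-like stretch and sit in the outer mitochondrial membrane, where they recruit autophagosomes that remove mitochondria. BNIP3 is a classical target of hypoxia-inducible factors, and its promoter is often described as methylated in pancreatic cancer.

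The groups differed in more than the transfected gene. CDKN2A, which encodes p16, had a mock level of 6.01 ± 0.41 and a p16 level of 12.60 ± 0.45 (SD, n = 3 each) on its brightest probe set. Another CDKN2A probe set lay at background in mock samples, at 2.03 ± 0.01, and read 11.92 ± 0.04 in p16 samples. That was a rise of at least 242-fold. A further CDKN2A probe set lay under 4 in every sample. Neighbours of CDKN2A on its chromosome that are no part of a p16 cDNA differed as well. In the p16 samples MTAP was at least 133-fold, KLHL9 at least 182-fold and CDKN2B at least 27.3-fold higher. The Y-linked gene DDX3Y went from 2.48 ± 0.01 in mock to 11.28 ± 0.75 in p16 samples (SD, n = 3 each), and SMAD4 from 5.33 ± 0.55 to 9.94 ± 0.31. Whether both groups are the same cell line was not tested, and every difference between the groups given below carries that doubt. Of 11658 genes tested, 42.0% differed between the groups (limma, Benjamini-Hochberg adjusted p under 0.05), with 19.5% higher and 22.5% lower in p16 cells. Sample correlations were 0.927 to 0.991 within and 0.716 to 0.781 between groups. GAPDH differed by 0.14 on its brightest probe set, with an SD of 0.12 in mock and 0.21 in p16 samples (adjusted p = 0.61). Its other probe sets differed by 0.20 and 0.19 and were not called (adjusted p = 0.38 and 0.44). Pancreatic duct markers moved too: 6 of 8 tested fell and none rose, and the log2 of the summed level of the 9 on the array lay at 17.24 to 17.44 in mock and 15.65 to 15.93 in p16 samples. No sample reached 4 for any of the 5 endothelial or 5 leukocyte markers with a probe set. Of 9 fibroblast markers, 5 lay under 4 throughout and 1 of the 3 tested, LUM, rose at least 30.4-fold. COL1A1 was not called on its brightest probe set, while 2 of its 3 rose. The list had a summed level of 8.07 to 8.62 in mock and 9.28 to 9.93 in p16 samples. The part of these differences in the values below was not tested, and the effect of p16 and these differences cannot be told apart in this design. In bulk RNA, fewer cells of a kind and less RNA per cell cannot be told apart either.

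The upstream sequence of BNIP3 is shown because this gene went from the background level in every mock sample to a high level in every p16 sample, and that of BCL2L11 because this gene, whose product is BIM, moved the opposite way. Both are the 250 bases before the annotated start, from RefSeq on GRCh38.p14, printed on the gene's own strand from 5′ to 3′. BNIP3 lies on the minus strand at chr10:131981924-131982173 and BCL2L11 on the plus strand at chr2:111120664-111120913. Capitals mark the core of the hypoxia response element, searched as ACGTG and GCGTG with their reverse complements CACGT and CACGC, overlapping matches counted separately.
BNIP3: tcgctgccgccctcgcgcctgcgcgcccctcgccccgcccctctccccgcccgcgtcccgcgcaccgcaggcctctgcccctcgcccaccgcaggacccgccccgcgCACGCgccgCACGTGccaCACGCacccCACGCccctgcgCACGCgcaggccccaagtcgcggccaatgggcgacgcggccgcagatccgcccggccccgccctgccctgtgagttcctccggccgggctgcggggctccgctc
BCL2L11: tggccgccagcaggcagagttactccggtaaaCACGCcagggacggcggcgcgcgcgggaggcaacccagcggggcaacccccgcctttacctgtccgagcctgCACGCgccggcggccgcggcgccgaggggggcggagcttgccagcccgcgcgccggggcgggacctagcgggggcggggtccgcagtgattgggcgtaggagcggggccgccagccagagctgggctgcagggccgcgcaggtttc

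The BNIP3 window held 6 matches in 5 separate stretches and the BCL2L11 window 2. Of 35116 promoter windows of this length, 43.2% held at least 1 match and 0.646% held at least as many as BNIP3. The BNIP3 window also held 41 CG dinucleotides, against a median of 11 over all windows, and 1.73% of windows held as many or more. Windows of the other genes of the set held from 0 (a BMF window) to 36 (PMAIP1), and the BCL2L11 window held 34. The same motif occurred in 7 of the 8 genes of the set with a promoter entry, BID, BAD and PMAIP1 among them, which were not called, so a match describes the letters and not a working site.

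BNIP3 rose and BIK, BCL2L11 and BMF fell in p16 cells, while BID, BAD, PMAIP1 and BNIP3L were not called. That is 4 of the 8 tested genes, beside 42.0% of all genes. The p16 samples lay wholly apart from the mock samples for these same 4, 1 above (27.3% of all genes) and 3 below (29.1%), beside 56.4% in either direction. By probe set, 2 of 18 rose and 4 fell, beside 17.5% higher and 19.7% lower, or 37.2% in all. The share of these genes that changed was near that of the array as a whole. The median log2 change of the 8 genes was -0.44, against -0.03 over all genes tested. The 4 genes were called whichever of the 6 samples was left out, and also with both V1 samples left out.

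**Figure D1:**
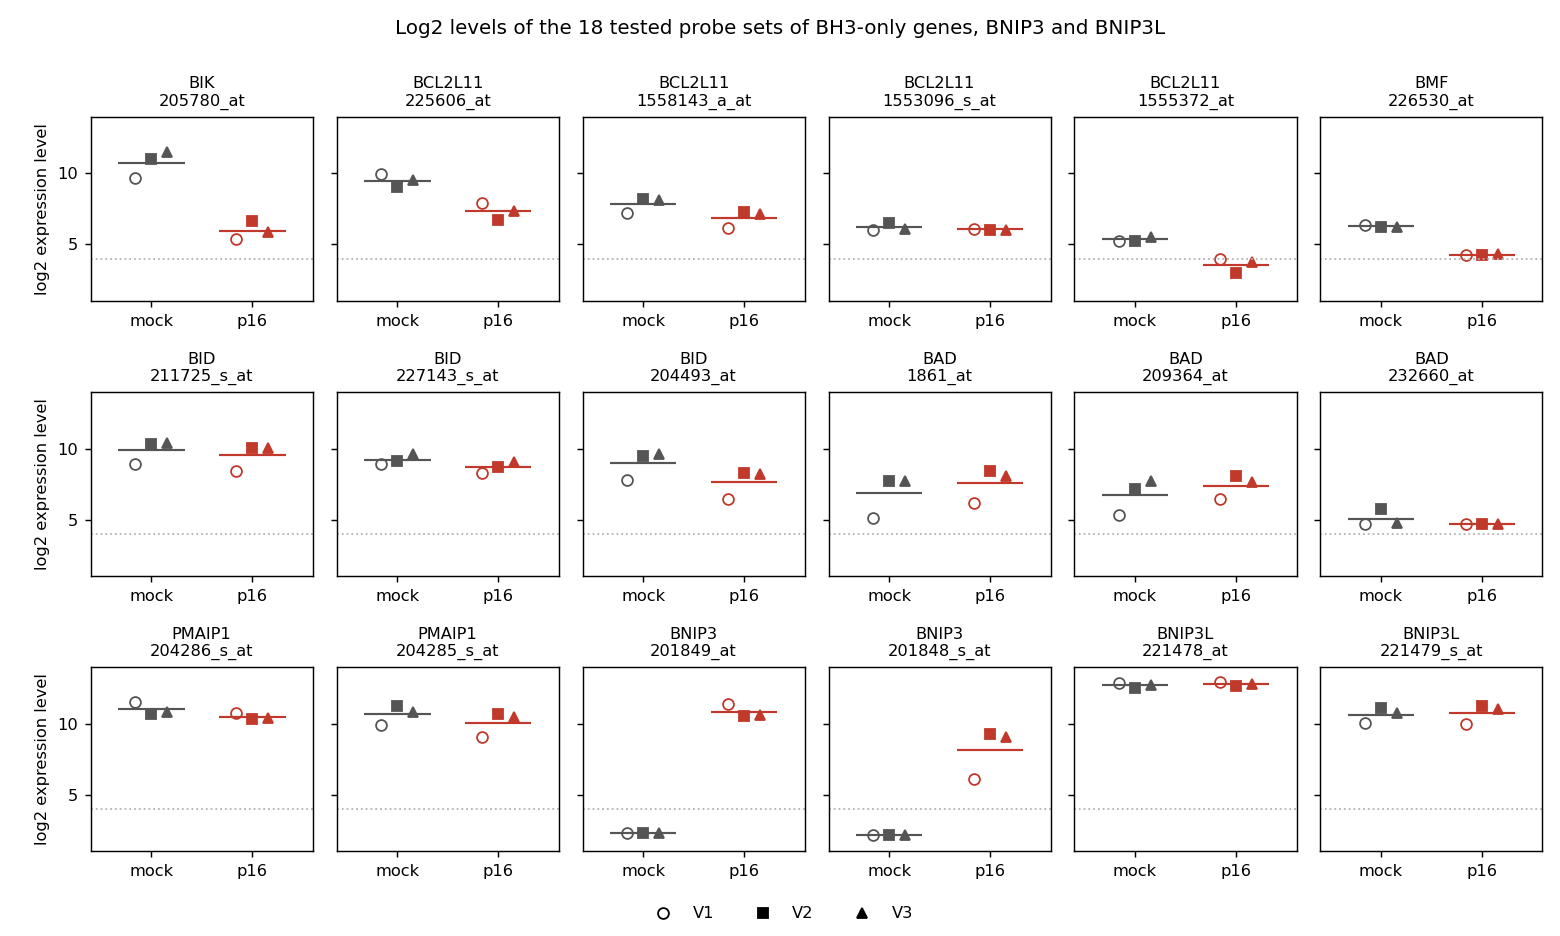
Log2 expression level of each of the 18 tested probe sets in the 3 mock (grey) and 3 p16 (red) samples, with symbols for V1, V2 and V3, a horizontal bar at the group mean and a dotted line at the level of 4. Both BNIP3 probe sets lie under 4 in the 3 mock samples and over 4 in the 3 p16 samples, and the single BIK probe set lies lower in every p16 sample than in any mock sample.

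BNIP3, the mitophagy receptor and hypoxia-inducible gene, was read by a pair of probe sets that both moved from background to clear signal. On the brighter one (201849_at) the mock samples V1, V2 and V3 read 2.29, 2.30 and 2.28. The p16 samples read 11.39, 10.50 and 10.61. No p16 sample came near the mock level, and the rise was at least 114-fold when the mock values are raised to 4 (fitted log2 change 8.55, SE 0.27, limma adjusted p = 1.4e-05). This probe set reached the level required for a test only in the p16 samples, and its mock values lie at background. The SE and p-value therefore do not measure a spread in mock cells. Of all genes tested, 0.369% rose by as large a bound.

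The other BNIP3 probe set (201848_s_at) read 2.17, 2.18 and 2.16 in the mock samples and 6.08, 9.25 and 9.08 in the p16 samples. It rose at least 17.6-fold (adjusted p = 0.0036, with the same limit on the p-value). The V1 sample of the p16 group was the lowest of its group on this probe set, by 3.09 below the mean of V2 and V3, and the highest on the brighter one. The pattern of a gene under 4 in all mock samples and at or above 8 in all p16 samples was shared by 1.08% of tested genes.

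BNIP3L, the close paralog also known as NIX, was high in every sample. On its brighter probe set (221478_at) the mock samples read 12.87, 12.53 and 12.74 and the p16 samples 12.90, 12.67 and 12.78. The groups overlapped, and the difference of 0.07 had a 95% interval of -0.35 to 0.49 (adjusted p = 0.80). Its second probe set differed by 0.15 (interval -0.95 to 1.25), with both V1 samples lowest. With the background values of BNIP3 in mock cells raised to 4, the log2 difference between BNIP3 and BNIP3L shifted between the groups by at least 6.77, given with no test since BNIP3 lay at background in every mock sample.

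BIK, a BH3-only protein of the endoplasmic reticulum and mitochondria, had the largest fall of the set. Its 1 probe set (205780_at) read 9.69, 11.01 and 11.50 in mock V1 to V3 and 5.35, 6.65 and 5.89 in p16 V1 to V3. The lowest mock sample lay above the highest p16 sample, and V1 was the lowest sample in both groups. BIK fell 27.3-fold (log2 change -4.77, SE 0.56, limma adjusted p = 0.0016). A fitted change as low or lower was seen in 2.91% of tested genes.

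BCL2L11 encodes BIM, which binds all the anti-apoptotic members and can activate BAX directly. It had 7 probe sets, of which 4 were tested and 2 fell. The brightest (225606_at) read 9.94, 9.05 and 9.51 in mock and 7.95, 6.73 and 7.33 in p16 cells, a 4.47-fold fall (log2 change -2.16, SE 0.39, adjusted p = 0.0077) with no overlap. A dimmer one (1555372_at) read 5.25, 5.27 and 5.54 in mock and 3.96, 3.01 and 3.77 in p16 cells, under 4 in all p16 samples and at least 2.56-fold lower (adjusted p = 0.0054). It reached the level required for a test only in the mock samples, so its p-value does not measure a spread above background in p16 cells.

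The other tested BCL2L11 probe sets were not called. One (1558143_a_at) read 7.25, 8.18 and 8.11 in mock and 6.15, 7.30 and 7.14 in p16 cells, so that each p16 sample lay below the mock sample of its own number while the groups overlapped (log2 change -0.98, adjusted p = 0.12, and 0.0023 with the V number fitted as a block, the replicate block). The remaining one (1553096_s_at) lay between 6.05 and 6.49 in the 6 samples and differed by -0.14 (adjusted p = 0.60). Taken as the median over its tested probe sets, BCL2L11 changed by -0.66 and was not called (adjusted p = 0.069). The annotation used does not say which BIM transcripts each probe set reads.

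BMF, a BH3-only protein that is held at the cytoskeleton until cells detach, had a single probe set (226530_at). It read 6.34, 6.26 and 6.25 in mock and 4.24, 4.23 and 4.30 in p16 cells. Both groups were tight and far apart, and the fall was 4.07-fold (log2 change -2.02, SE 0.14, adjusted p = 0.00021). The p16 values lie close to 4, the level under which no signal is read here.

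**Figure D2:**
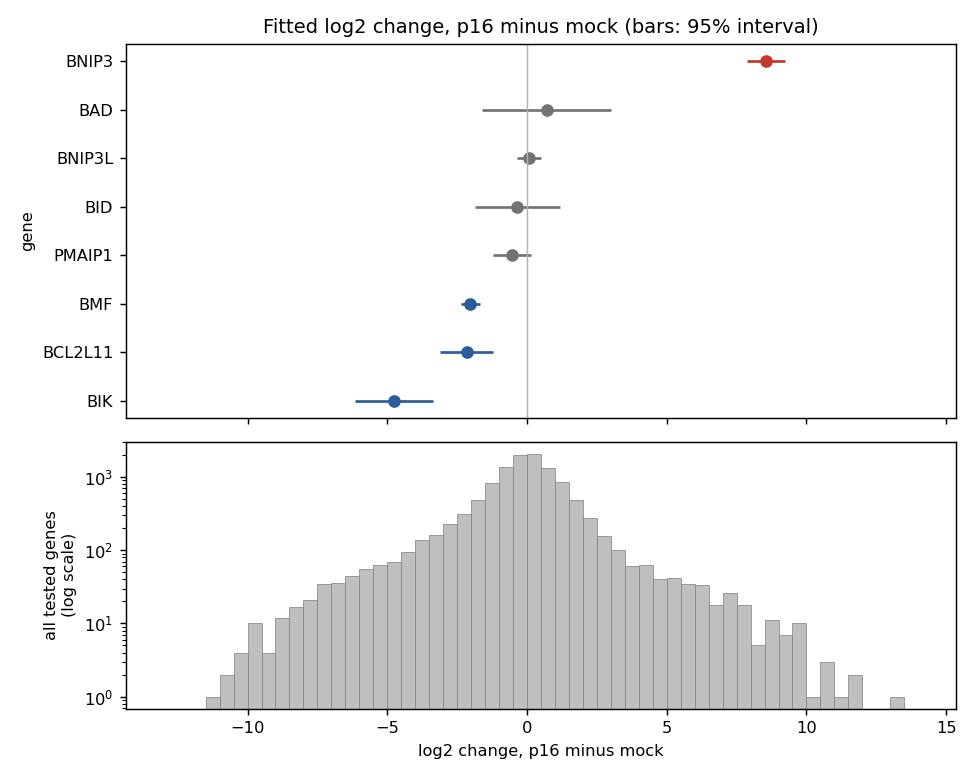
Upper panel, fitted log2 change (p16 minus mock) of the 8 tested genes with 95% intervals, red where called higher, blue where called lower and grey where not called. Lower panel, number of all 11658 tested genes by log2 change, on a log scale. BNIP3 at 8.55 (6.84 with its background values raised to 4) and BIK at -4.77 lie in the tails of the distribution, and BNIP3L and BID near its centre.

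BID links death receptors to mitochondria once caspase 8 has cut it. Its brightest probe set (211725_s_at) read 8.90, 10.34 and 10.37 in mock and 8.45, 10.03 and 10.07 in p16 cells. V1 was low in both groups, and the group difference of -0.35 had a 95% interval of -1.88 to 1.17 (adjusted p = 0.70). With the replicate block the difference passed the threshold (adjusted p = 0.045). A dimmer probe set (204493_at) read 7.79, 9.51 and 9.65 in mock and 6.46, 8.29 and 8.24 in p16 cells, a difference of -1.32 (adjusted p = 0.21, and 0.00097 with the block). The third BID probe set differed by -0.54 (adjusted p = 0.20, and 0.013 with the block), so that on all 3 each p16 sample read below the mock sample of its own number.

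BAD, a BH3-only protein that survival kinases silence by phosphorylation, showed a wide spread within both groups. Its brightest probe set (1861_at) read 5.14, 7.73 and 7.71 in mock and 6.17, 8.44 and 8.08 in p16 cells. The V1 samples lay 2.58 and 2.09 below the mean of V2 and V3 of their groups, more than the difference of 0.70 between the groups (95% interval -1.61 to 3.01, adjusted p = 0.61). With the replicate block this difference was called higher (adjusted p = 0.020). A second probe set (209364_at) differed by 0.63 and was called in neither fit (adjusted p = 0.56, and 0.099 with the block). The third (232660_at) pointed the other way, at -0.36, and was called in neither fit (adjusted p = 0.43, and 0.27 with the block). It held exactly 1 deposited value in 3 of the 6 samples, drawn from both groups, as did 229 of 24406 tested probe sets in 3 or more samples.

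PMAIP1 encodes NOXA, a protein that neutralises MCL1. One probe set (204286_s_at) read 11.53, 10.70 and 10.79 in mock and 10.73, 10.30 and 10.39 in p16 cells, a difference of -0.54 (95% interval -1.23 to 0.16, adjusted p = 0.19, and 0.026 with the block). The other (204285_s_at) read 9.93, 11.24 and 10.84 in mock and 9.09, 10.66 and 10.48 in p16 cells, a difference of -0.59 (adjusted p = 0.45, and 0.021 with the block). Both pointed the same way between groups, but V1 was the highest sample of each group on the first and the lowest on the second.

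HRK, a BH3-only protein known mainly from neurons, gave no signal that could be compared. Its 5 probe sets read between 2.00 and 3.30 in the 6 samples. The largest difference between the group means was 0.24, and all values lay within the range where GCRMA places unexpressed probe sets. No fold is given.

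The V numbers marked a shift that both groups shared on many of these probe sets. Of the 18 tested probe sets, V1 was the lowest sample of both groups on 9 and the highest of both on 3. Over all tested probe sets these shares were 30.1% and 34.9%. By gene, V1 was lowest of both groups in 3 of the 8 and highest in 3, beside 3054 and 4605 of all 11658 genes. BCL2L11, PMAIP1 and BNIP3L each had a probe set with V1 highest in both groups and another with V1 lowest, so the direction went with the probe set. With the number as a block, 7 of the 8 genes were called, 2 higher (BNIP3 and BAD) and 5 lower (BIK, BCL2L11, BMF, BID and PMAIP1). In the same fit 67.9% of all genes were called, 32.4% higher and 35.5% lower. With V2 and V3 alone, BID, BAD and PMAIP1 differed by -0.31, 0.54 and -0.40 and none of the 3 was called (adjusted p = 0.088, 0.060 and 0.054).

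**Figure D3:**
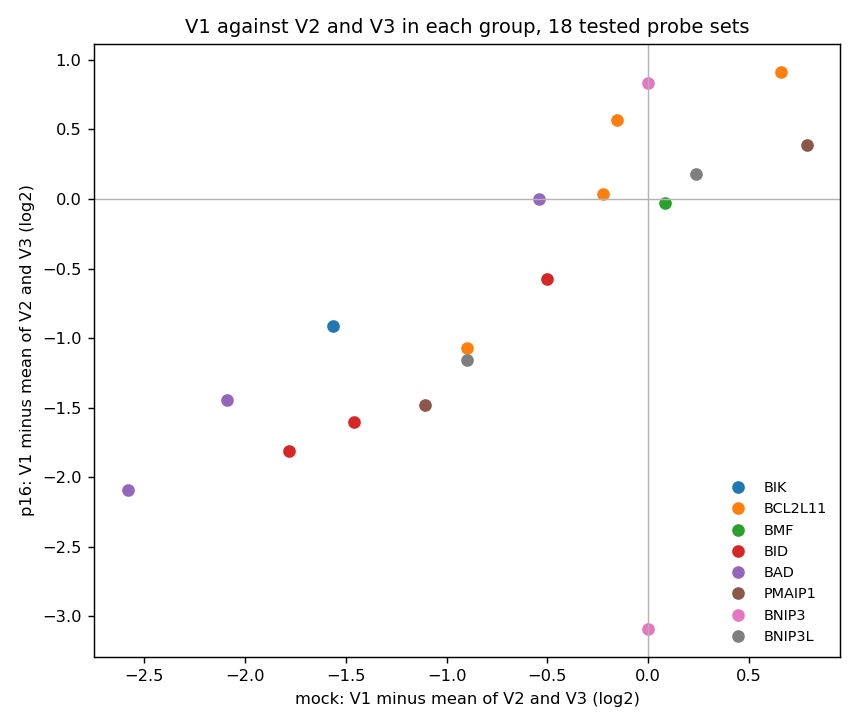
For each of the 18 tested probe sets, the V1 level minus the mean of V2 and V3 in mock (horizontal) and p16 samples (vertical), both in log2 units and coloured by gene. Most points lie at the lower left or upper right, where V1 departs the same way in both groups, and the BNIP3 probe sets, at background in mock cells, lie on the vertical line at 0.

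The 3 nearest tested neighbours on each side of BNIP3, BIK, BCL2L11 and BMF were read as well, a comparison chosen after the data were seen that used the order of genes in the GRCh38.p14 reference. Of these 24 neighbours, 1 rose and 7 fell, beside 42.0% of all genes called (19.5% higher and 22.5% lower). With the replicate block 16 were called, beside 67.9% of all genes. The nearest tested gene on each side of BNIP3 was not at background in mock cells. PPP2R2D read 8.16 ± 0.04 there (SD, n = 3) and changed by -0.93 (adjusted p = 0.0058). STK32C read 5.59 ± 0.07 and differed by -0.42 (adjusted p = 0.14). Between BNIP3 and STK32C, 2 array genes were passed over because they did not reach the level required for a test. Only tested genes were read, so a gene at background in all samples could not appear here. Further out, the DNA repair gene MGMT was at least 36.5-fold lower in p16 cells (adjusted p = 0.00015) and PWWP2B was 5.96-fold lower (adjusted p = 0.00097).

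Beside BIK no neighbour was called without the block. The largest difference there was in PNPLA3, at least 4.91-fold lower and under 4 in all p16 samples (adjusted p = 0.0504, and 0.023 with the block). TTLL1 differed by -0.53 (adjusted p = 0.089, and 0.016 with the block) and TSPO by -0.50 (adjusted p = 0.45, and 0.017 with the block). Near BMF, the kinase gene PAK6 was at least 29.9-fold lower (adjusted p = 0.0019) and the receptor gene GPR176 was 10.04-fold higher (adjusted p = 0.00077). SRP14, next to BMF, differed by -0.76 (adjusted p = 0.22, and 0.0067 with the block). Near BCL2L11, the receptor kinase gene MERTK was 2.78-fold lower (adjusted p = 0.037), and BUB1 differed by 0.41 (adjusted p = 0.16, and 0.044 with the block).

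The genes whose 6 values ran most like those of BNIP3, by Euclidean distance between log2 values after each gene's own mean was subtracted, were the cancer-testis antigen MAGEA4 (distance 0.12), the hyaluronan receptor LAYN (0.46) and the Y-linked helicase DDX3Y (0.51). All 3 lay under 4 in every mock sample, and in p16 samples MAGEA4 read 11.68, 10.78 and 10.79, next to 11.39, 10.50 and 10.61 for BNIP3. Nearest to BIK were GSE1 (0.59), the antisense gene DLGAP1-AS6 (0.72) and ERICH5 (0.85). GSE1 read 10.43, 11.75 and 11.55 in mock and 5.98, 7.12 and 6.25 in p16 cells, with V1 lowest in both groups as in BIK.

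Among the multidomain members of the BCL2 family, to which BH3-only proteins bind, 2 of 7 tested genes rose and 1 fell, a share near that of all genes (42.0% called, 19.5% higher and 22.5% lower). Of the pore-forming members, BAK1 rose by 0.91 (adjusted p = 0.019) and BAX by 1.00 (adjusted p = 0.014, called on 1 of 2 probe sets), and BCL2L1, which encodes the guardian BCL-XL, changed by -1.45 (adjusted p = 0.020, called on 1 of 3). MCL1, the partner of NOXA, had means of 13.90 ± 0.35 in mock and 13.37 ± 0.54 in p16 samples (SD, n = 3; adjusted p = 0.28, or 0.023 with the V number as a block), and BOK differed by -0.18 (adjusted p = 0.71). BCL2A1 and BCL2L10 lay under 4 in every sample. The median change of the list was 0.20. None of the 3 calls held without the V2 sample of the p16 group. Without the V3 sample of that group or the V2 sample of the mock group, 1 gene was called. With V2 and V3 alone 5 were called, beside 6866 of all 11658 genes.

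Of the binding partners and modifiers of BH3-only proteins, 2 of 25 tested genes rose and 4 fell, beside 42.0% of all genes called, with a median change of -0.09. BECN1, an autophagy protein with a BH3 domain of its own, changed by -1.24 (adjusted p = 0.013, 1 of 2 probe sets) and MOAP1, a BAX-binding protein, by -1.05 (adjusted p = 0.0066). The mitochondrial channels went both ways, VDAC1 up by 1.09 (adjusted p = 0.020, 1 of 2 probe sets) and VDAC2 changed by -0.83 (adjusted p = 0.0083). HUWE1, a ubiquitin ligase for MCL1, and YWHAQ, a 14-3-3 protein of the kind that sequesters BAD, differed by -0.07 and -0.09 (adjusted p = 0.76 and 0.80) on their brightest probe sets. The other HUWE1 probe set rose. With the replicate block 13 were called, 3 higher and 10 lower, beside 67.9% of all genes. V2 and V3 alone also gave 13, beside 6866 of all 11658 genes. Leaving out V2 or V3 of either group gave 2 to 3.

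Regulators of transcription that act on these genes changed in 12 of 22 cases, 5 higher and 7 lower, beside 42.0% of all genes (19.5% higher and 22.5% lower), with a median change of 0.21. RB1, which restrains E2F factors, fell by 5.29, from 12.92 ± 0.12 to 7.62 ± 0.85 (SD, n = 3, adjusted p = 0.0004), and SMAD4, the common mediator of TGF-beta signals, rose by 4.61 (adjusted p = 0.00024). EPAS1, which encodes HIF-2alpha, fell by 3.73 (11.71 ± 0.23 and 7.98 ± 0.26, adjusted p = 0.0001), while HIF1A read 15.14 ± 0.02 and 14.90 ± 0.10 (adjusted p = 0.25). SNAI2, a repressor of BBC3, was at least 7.01-fold lower (adjusted p = 0.00091). MYC differed by 1.38 (adjusted p = 0.10, and 0.00091 with the block).

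Other targets of hypoxia-inducible factors went both ways. Of 25 tested, 7 rose, 3 fell and 15 were not called, a share near the 42.0% of all genes (19.5% higher and 22.5% lower), with a median change of 0.55. LOX, a collagen cross-linking oxidase, rose by 4.52 (adjusted p = 0.00035) and ADM, the vasodilator adrenomedullin, by 3.71 (adjusted p = 0.0025). PFKFB3, a regulator of glycolysis, fell by 4.12 (adjusted p = 8.2e-05) and ANGPTL4, an inhibitor of lipoprotein lipase, was at least 7.34-fold lower (adjusted p = 8.2e-05). The glycolytic enzymes PGK1, of whose 4 probe sets 1 rose, and ENO1 differed by 0.67 and 0.36 (adjusted p = 0.21 and 0.39, and 0.0061 and 0.046 with the block). With the block 14 rose and 7 fell, beside 67.9% of all genes called in that fit. With V2 and V3 alone 12 rose and 5 fell, beside 6866 of all 11658 genes called.

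In the machinery of mitophagy and autophagy, in which BNIP3 and BNIP3L act, 6 of 27 tested genes rose and 2 fell, beside 42.0% of all genes called (19.5% higher and 22.5% lower), with a median change of 0.13. PINK1, the kinase that marks damaged mitochondria, rose by 2.07, from 8.46 ± 0.37 to 10.53 ± 0.09 (SD, n = 3, adjusted p = 0.0012), and the conjugation protein ATG12 by 2.31 (adjusted p = 0.0052). The mitochondrial phosphatase PGAM5 rose by 1.55 (adjusted p = 0.020) and MAP1LC3A, an autophagosome protein, changed by -1.77 (adjusted p = 0.042). RHEB and PHB2 differed by -0.21 and 0.51 (adjusted p = 0.52 and 0.26, the latter 0.025 with the block). The count of calls was 21 with the block (67.9% of all genes) and 16 with V2 and V3 alone (6866 of all 11658 genes). It was 3 to 4 when V2 or V3 of either group was left out. Without the filter on low values it was 3, beside 4029 of all 19775 genes.

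**Figure D4:**
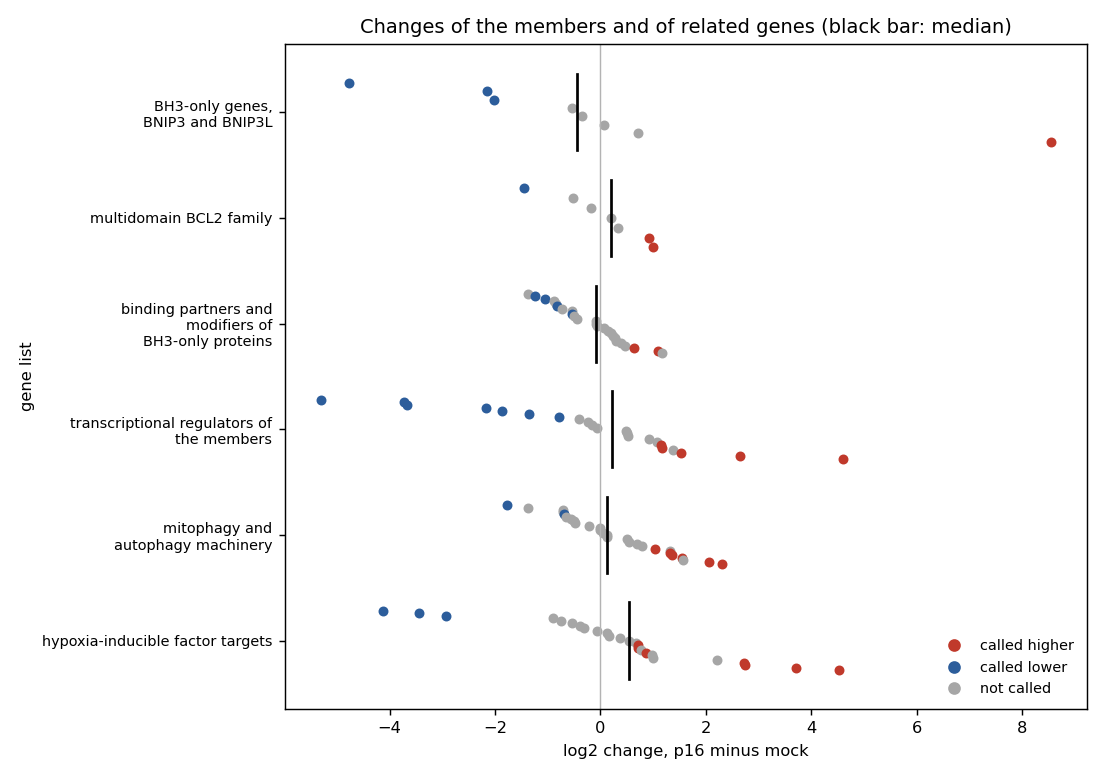
Log2 change (p16 minus mock) of the 8 tested genes of the set and of each tested gene of 5 related lists, red where called higher, blue where called lower, grey where not called, with a black bar at each list's median. BNIP3 is drawn at its fitted 8.55, which is measured against mock values at background; with those raised to 4 its change is 6.84. The medians of the 5 lists run from -0.09 to 0.55.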

How the data were processed

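Total RNA (300 ng) of 6 samples was labelled with biotin and hybridised to Affymetrix arrays of 1 colour. The deposited values are log2 expression levels per probe set. The submitters' processing notes name GCRMA, without a version, as the authors' method. GCRMA places unexpressed probe sets near a floor, so folds against it are bounds. Platform annotation named 1 gene for 41091 of 54613 probe sets after 62 controls were removed.

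A probe set was tested if it reached 4 in at least 3 of 6 samples (24406 passed). limma 3.58.1 in R 4.3.3 (lmFit, eBayes, two-sided, no block) compared p16 with mock, with Benjamini-Hochberg adjustment over all tested probe sets and a threshold of 0.05. Each gene is represented by the tested probe set whose mean over the 6 samples was highest. "At least" folds raise values under 4 to 4.

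Deviations from the group means correlated between samples of 1 number (0.81, 0.75 and 0.67), so the V number was also fitted as a replicate block. The labels do not say what it stands for. Alternatives to filter, scaling, floor, variance model, probe set and samples were run, and the limma script was tested on simulated data. Simulated log2 changes of 1, 2, 4 and 6, in 50 probe sets each, were recovered in 2%, 36%, 78% and 92%. A true change of 1 or 2 can therefore go uncalled. Far fewer probe sets changed there than in these data, so the shares do not carry over directly. Precision is limited by the number of arrays. The members, lists and tests were chosen with earlier results of these data known. Named genes were all members, checks such as MTAP, per list up to 4 called genes with the largest change and non-overlapping groups and the 2 brightest not called, and the 3 genes nearest in pattern to BNIP3 and BIK. Tables and figures used Python 3.11.15 and matplotlib 3.10.9.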

Additional observations from a re-analysis of the deposited data

How the results depend on the processing

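BIK, BCL2L11, BMF and BNIP3 kept their direction and call under every alternative run, except BCL2L11 as a median over its probe sets (-0.66); the members called stayed at 4 in all leave-one-out fits and rose to 7 with the replicate block. Genes called numbered 4895 of 11658, 7916 with the block, 6866 with V2 and V3 alone and 3484 to 4924 with 1 sample left out. Without a filter 4029 of 19775 were called. The block takes the shared shift of V1 out of the spread. The list counts below stand beside these numbers. The replicate block changed the calls of BID, BAD, PMAIP1 and the probe sets given above, and of no other member. Called partners and modifiers numbered 6, 13 with the block, 13 with V2 and V3 alone (an alternative chosen after seeing the data), 10 with the median over probe sets and 2 to 9 with 1 sample left out. Called multidomain genes numbered 3, 5 with V2 and V3 alone, 1 with the median and 0 to 3 with 1 sample left out. Called mitophagy genes numbered 8, 21 with the block, 16 with V2 and V3 alone, 3 without a filter and 3 to 8 with 1 sample left out, and called hypoxia targets 10, 21 with the block and 17 with V2 and V3 alone. The fitted BNIP3 minus BNIP3L shift, 8.48 without a floor, ranged from 8.26 to 8.59 with 1 sample left out and was 6.77 with values under 4 raised to 4. Some small differences turned sign with 1 sample left out: BID ranged from -0.84 to 0.18 (without p16 V1), BAD from -0.16 (without mock V1) to 1.40 and its probe set 209364_at from -0.065 to 1.13, BNIP3L from -0.025 (without mock V2) to 0.15 and its probe set 221479_s_at from -0.15 (without mock V1; -0.11 without p16 V2) to 0.53, and BCL2L11 1553096_s_at from -0.21 to 0.0042 (without mock V2), with 0.14 under quantile normalization. Signal near the floor limits BMF and HRK. The cause of the other moves was not tested.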
